A study of Mus musculus with 8 samples.

Results

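The CCN genes and a small set of genes linked to the transcriptional coactivators YAP and TAZ were followed in primary lung fibroblasts (pFBs), cells grown out of mouse lung tissue. The 10 genes were taken by symbol from a table of 54532 gene entries: the CCN genes Ctgf, Cyr61, Nov, Wisp1 and Wisp2, also called Ccn2, Ccn1, Ccn3, Ccn4 and Ccn5, the YAP and TAZ targets Ankrd1, Amotl2 and Ajuba, and the coactivator genes Yap1 and Wwtr1. They were taken by name, with no threshold on their values, but with earlier results of these data known. Wwtr1 encodes TAZ.

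The study asked how human IGFBP5 (hIGFBP5), a secreted binding protein of insulin-like growth factors, alters gene expression in these cells. It compared 4 libraries from wild type mice (WT1 to WT4) with 4 from mice homozygous for a human IGFBP5 transgene (HOMO1 to HOMO4). All libraries came from pFBs of female mice labelled with a C57/black background, kept in complete serum-containing medium and given no treatment. In the HOMO mice the transgene was knocked in with CRISPR/Cas9 and is driven by the Ef1a1 promoter, which is active in most cell types. Mouse ages and the number of mice behind each library are not given in the sources used here, so the p-values measure the spread between libraries, which may be technical. The human transgene was not analysed here.

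CCN proteins are secreted, matrix-associated signalling proteins that bind integrins, proteoglycans and growth factors, and Ctgf is among the best known mediators of tissue fibrosis. YAP and TAZ carry mechanical and growth signals to the nucleus, where they bind TEAD transcription factors and switch on genes such as Ctgf, Cyr61, Ankrd1, Amotl2 and Ajuba. The Hippo kinase cascade phosphorylates YAP and TAZ and keeps them in the cytoplasm. Their activity is therefore set largely by where the proteins are, which RNA counts do not measure.

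Library totals ran from 17236521 to 31987790 gene counts, and 3 counts corresponded to 0.0908 to 0.172 CPM, the counts scaled to a library of fixed size, across the libraries. A pair of WT libraries (WT1 with WT2) and both pairs of HOMO libraries (HOMO1 with HOMO2, HOMO3 with HOMO4) were nearly alike, with a coefficient of variation beyond counting error of 4.71 to 7.64% across genes. The other 9 pairs within a genotype stood at 29.7 to 55.6%. The near-identical libraries still differed by more than counting noise, with a chi-square per degree of freedom of 4.08 to 8.40, and were kept as separate samples. Whether they share a mouse or a culture is not given in the sources used here. Calls are therefore also given with these libraries summed, which left 3 WT and 2 HOMO units. The counts carry the name "outlierout", and if a sample had been taken out earlier, which the sources used here do not say, the spreads and p-values would hold only for the libraries kept. The 9 fibroblast markers summed to 12937 to 16618 CPM in WT and 14002 to 24381 CPM in HOMO, against 0.172 to 1.09 and 0.201 to 1.42 CPM for the 6 endothelial markers and 0.225 to 1.55 and 1.60 to 14.5 CPM for the 8 epithelial markers, of which Krt5 was at 0. The fibroblast sum was carried by Col1a1 and Col1a2, the type I collagen genes, whose CPM in HOMO3 was 11713 and 7735. The test described below called 2 of the 9 fibroblast markers, both downward, Pdgfrb (log2 fold change -0.97) and Vim (-0.65), and Thy1 was at 71.7 to 264 CPM in WT and 22.3 to 112 CPM in HOMO. It also called 1 of the 2 epithelial markers tested and 0 endothelial ones, none of which had enough reads to be tested. Of all tested genes, 12.1% were called. In cultures of this kind, fewer cells of a type and less RNA per cell cannot be told apart.

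All 10 genes had enough reads for the edgeR test across 14150 genes, in which a differentially expressed gene (DEG) differed by more than 0.6 on the log2 scale, in either direction, at an adjusted p below 0.05. Wisp2 was downregulated and Amotl2 was upregulated in HOMO pFBs, and the other 8 did not pass, with adjusted p from 0.0576 to 0.941. The count of 2 DEGs among 10 is read against 12.1% of all tested genes called. Upregulated genes made up 5.94% of those tested and downregulated genes 6.18%. Without adjustment, 6 of the 10 had p under 0.05, against 32.3% of all tested genes. The genotypes did not overlap in CPM for 5 of the 10, namely Ctgf, Wisp1, Wisp2, Amotl2 and Yap1, against 27.3% of all tested genes. Of these 5, Amotl2 was higher in HOMO (14.0% of all tested genes) and the other 4 were lower (13.4% of all tested genes). DESeq2 called 5 of the 10, against 16.5% of the genes it tested. Adding up near-identical libraries left 0 calls in edgeR among the 10 and 0 among all genes, so losing a call there does not set the 10 apart. In that fit 3 of the 10 and 2057 of all genes had an unadjusted p under 0.05. The median log2 fold change of the 10 was -0.49, and that of all tested genes was -0.04.

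**Figure D1:**
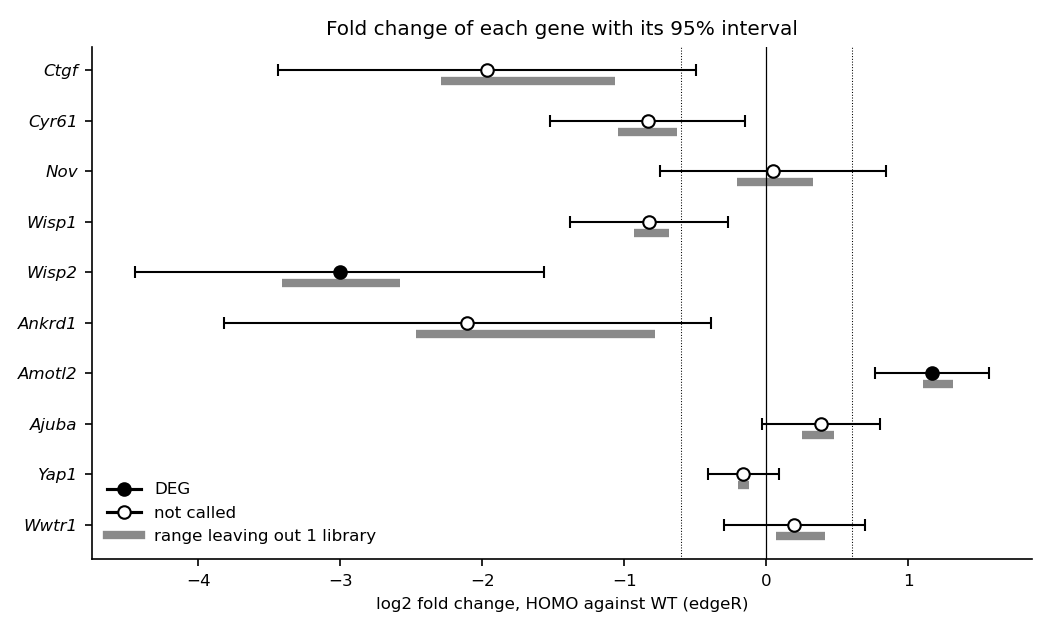
Fitted log2 fold change of each of the 10 genes, HOMO relative to WT, from edgeR over 4 WT and 4 HOMO libraries, with bars for the 95% confidence interval. Wisp2 at -3.00 and Amotl2 at 1.17 passed the DEG thresholds, and the intervals of Nov, Ajuba, Yap1 and Wwtr1 span 0.

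Per length of exon, the wild type pFBs held most transcript of Ctgf, at 706 ± 659 CPM per kb (SD, n = 4), then Wisp2 at 445 ± 228, Cyr61 at 398 ± 113 and Ankrd1 at 248 ± 301 CPM per kb. On the same scale came Amotl2 at 76.2 ± 15.0, Wisp1 at 49.0 ± 12.4, Wwtr1 at 29.1 ± 9.51, Yap1 at 24.4 ± 1.81, Ajuba at 23.2 ± 4.58 and Nov at 8.67 ± 4.10 CPM per kb. Neighbours in this WT order overlapped over the 4 libraries except Amotl2 with Wisp1 and Ajuba with Nov. In HOMO the order per kb was Cyr61 at 223 ± 82.2 (SD, n = 4), Ctgf at 180 ± 101, Amotl2 at 171 ± 18.3, Ankrd1 at 57.7 ± 5.40, Wisp2 at 55.5 ± 41.6, Wwtr1 at 33.4 ± 2.21, Ajuba at 30.3 ± 4.59, Wisp1 at 27.7 ± 7.32, Yap1 at 21.8 ± 0.514 and Nov at 8.98 ± 1.59 CPM per kb. There the gaps between Amotl2 and Ankrd1 and between Yap1 and Nov were the only ones without overlap. Wisp2 thus stood above Amotl2 in WT and below it in HOMO. Against Ankrd1 it was lower only in HOMO1 and HOMO2, and higher in HOMO3 (84.6 against 64.6 CPM per kb) and HOMO4 (97.8 against 58.7 CPM per kb).

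**Figure D2:**
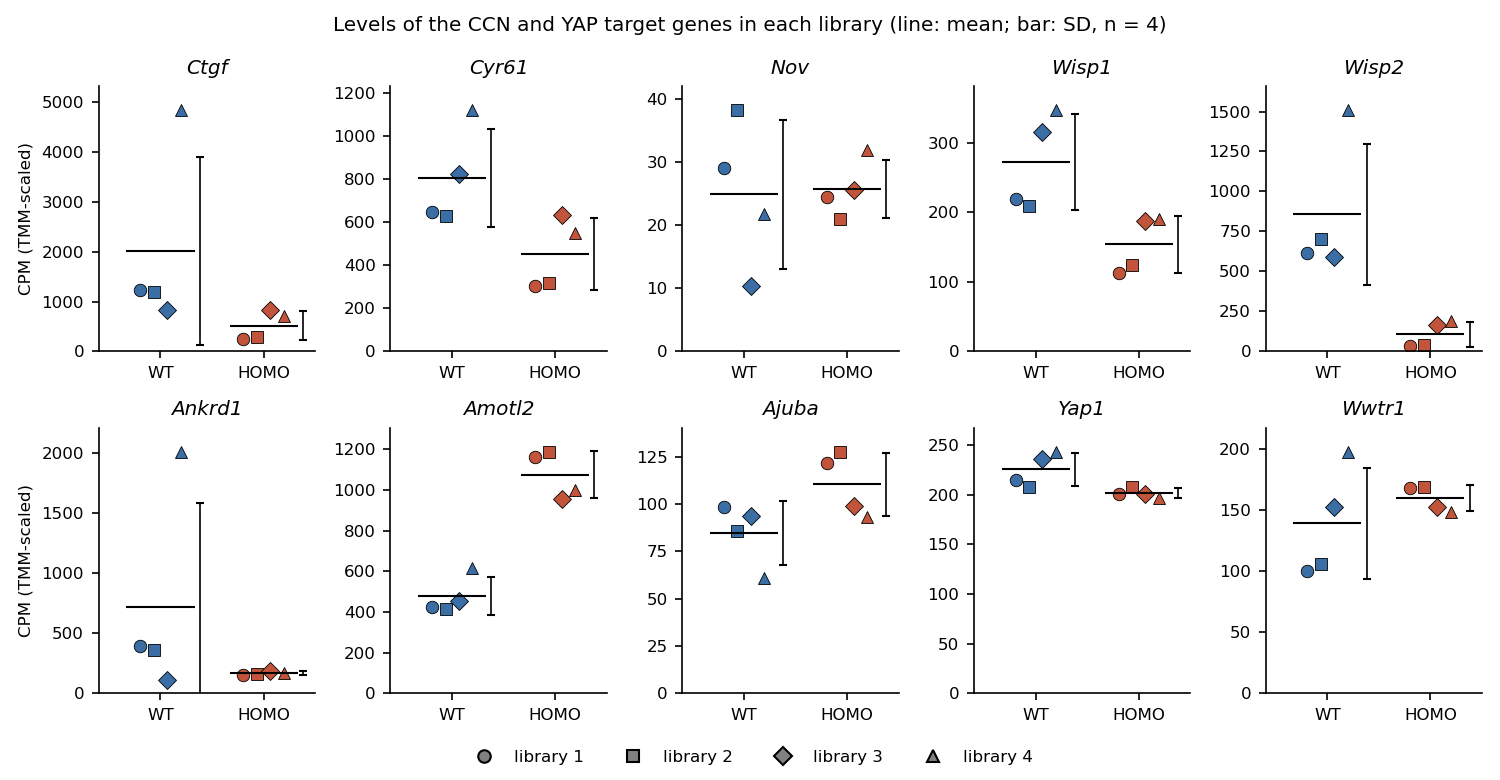
CPM of the 10 genes in each library, with WT and HOMO side by side and the mean with its SD (n = 4 each). WT4 sits far above the other WT libraries for Ctgf and Ankrd1, where the SD is about as large as the mean and the Ankrd1 bar is drawn only down to 0, while Amotl2 lies higher in every HOMO library than in any WT library.

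Wisp2, the CCN family member that lacks the C-terminal domain of the other CCN proteins, is a secreted protein and Wnt target. The gene lies on the plus strand at chr2:163820861-163833146 of GRCm38. Its level was 618, 706, 591 and 1509 CPM in WT1 to WT4, and 37.0, 38.9, 163 and 188 CPM in HOMO1 to HOMO4. All HOMO libraries lay below all WT libraries, HOMO1 and HOMO2 lowest of all and WT4 highest. The mean went from 856 ± 438 to 107 ± 80.1 CPM (SD, n = 4 each). By edgeR this was a log2 fold change of -3.00 (SE 0.63, 95% interval -4.44 to -1.57, adjusted p = 0.0203), or 8.03-fold lower in HOMO. The edgeR call depends on the closely alike HOMO1 and HOMO2: without HOMO1 the edgeR adjusted p was 0.0567 (log2 fold change -2.72), without HOMO2 it was 0.0585, and with near-identical libraries summed it was 0.296 (log2 fold change -3.10). DESeq2 called Wisp2 with the libraries summed (adjusted p = 0.00167, log2 fold change -3.11).

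Ctgf lies on the plus strand at chr10:24595442-24598683. Its CPM values were 1225, 1187, 832 and 4834 in WT1 to WT4 and 258, 279, 825 and 702 in HOMO1 to HOMO4. The genotypes did not overlap, but WT3 and HOMO3 were separated by only a few CPM, and WT4 was several times higher than the other WT libraries. The means of 2020 ± 1885 and 516 ± 290 CPM (SD, n = 4 each) gave a log2 fold change of -1.97 (SE 0.65, 95% interval -3.44 to -0.50), which did not pass in edgeR (adjusted p = 0.0773). DESeq2 called it (adjusted p = 0.00855), as did limma-voom with sample quality weights (adjusted p = 0.0175), in which the log2 fold change was -1.16. With near-identical libraries summed it was not called by edgeR (adjusted p = 0.398) or DESeq2 (adjusted p = 0.125). Without WT4 the edgeR log2 fold change was -1.07, and without WT3 Ctgf passed (adjusted p = 0.0492, log2 fold change -2.23). In WT4 the median gene of chromosome 10 stood 0.23 above the mean of the other WT libraries on the log2 scale, and the part of this in the Ctgf value was not tested. An antisense gene, Gm15270, covers 23.2% of the Ctgf exon bases and held 0 to 6 counts per library.

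Cyr61, a matrix-associated protein that binds integrins, is encoded on the minus strand at chr3:145646976-145649981. Its values were 645, 628, 824 and 1120 CPM in WT1 to WT4, and 303, 318, 634 and 549 CPM in HOMO1 to HOMO4. The genotypes overlapped because HOMO3 lay just above WT2. The means were 804 ± 228 and 451 ± 166 CPM (SD, n = 4 each), and the log2 fold change of -0.83 (SE 0.30, 95% interval -1.52 to -0.15) did not pass in edgeR (adjusted p = 0.0981). In WT3 the median gene of chromosome 3 stood 0.37 above the mean of the other WT libraries on the log2 scale, and the part of this in the Cyr61 value was not tested.

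Wisp1, a secreted CCN protein known as a Wnt target, lies on the plus strand at chr15:66891320-66923201. Its CPM values were 219, 209, 315 and 347 in WT1 to WT4 and 113, 124, 187 and 191 in HOMO1 to HOMO4. Every HOMO library was below every WT library. The means of 273 ± 69.1 and 154 ± 40.7 CPM (SD, n = 4 each) gave a log2 fold change of -0.82 (SE 0.24, 95% interval -1.38 to -0.27), just short of the threshold in edgeR (adjusted p = 0.0576). DESeq2 called it (adjusted p = 0.0221), but not with near-identical libraries summed (adjusted p = 0.242), and in limma-voom the log2 fold change was -0.39 (adjusted p = 0.0596).

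Nov lies on the same chromosome as Wisp1, at chr15:54745702-54754039 on the plus strand, and encodes a CCN protein often described as opposing the actions of Ctgf. Its level was 29.1, 38.2, 10.4 and 21.8 CPM in WT1 to WT4 and 24.5, 21.0, 25.6 and 31.9 CPM in HOMO1 to HOMO4. The HOMO range lay inside the WT range. The log2 fold change was 0.05 (SE 0.35, 95% interval -0.75 to 0.85, edgeR adjusted p = 0.941), an interval that still holds changes in either direction, and its sign turned in 4 of 17 alternative analyses. The sixth CCN gene, Wisp3, was too low for the edgeR test, with 0 to 1 counts per WT library and 0 to 2 per HOMO library. An exact two-sided permutation test of its mean CPM over all 70 assignments of the 8 libraries gave p = 0.143, where the smallest p possible was 0.0286.

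Added up per kb of exon, the 5 CCN transcripts came to 1118, 1144, 1067 and 3098 CPM per kb in WT1 to WT4, and 288, 305, 730 and 660 CPM per kb in HOMO1 to HOMO4. Both genotypes held a library pair or a single library well apart from its fellows, yet no HOMO sum reached a WT sum. Wisp2 made up 25.3 to 32.1% of this sum in WT (28.7 ± 2.76%, SD, n = 4) and 6.63 to 14.8% in HOMO (9.93 ± 4.01%, SD, n = 4). Cyr61 made up 17.9 to 38.3% in WT and 41.1 to 52.0% in HOMO. These shares do not depend on how the libraries were scaled to each other. The share of Ctgf overlapped, at 27.3 to 54.5% in WT and 31.3 to 39.5% in HOMO. Wisp1 held 2.01 to 5.31% in WT and 4.61 to 7.32% in HOMO, and Nov 0.245 to 1.16% and 1.22 to 2.96%. The CCN output of HOMO pFBs thus held a smaller part of Wisp2 and a larger part of Cyr61 and, by a narrow margin, Nov, a description made after the values were seen. The larger parts are shares of a smaller sum. Mean Cyr61 was 804 CPM in WT and 451 CPM in HOMO, and mean Nov was 24.9 and 25.8 CPM.

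**Figure D3:**
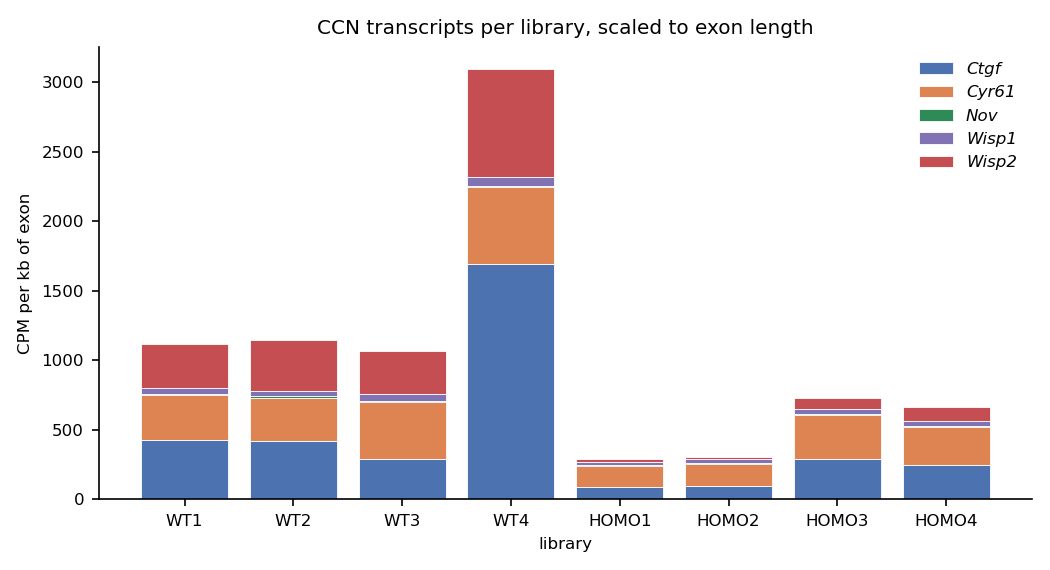
Summed CPM per kb of exon of the 5 CCN genes in each library, stacked by gene. The WT bars reach 1067 to 3098 and the HOMO bars 288 to 730, with the Wisp2 segment at 25.3 to 32.1% of the WT bars and 6.63 to 14.8% of the HOMO bars.

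Of the genes outside the CCN family, the promoters of the 3 YAP and TAZ targets are shown here together with that of Cyr61, because all of them are described as TEAD-bound genes. Each line gives the 250 bases before the RefSeq start (GRCm38.p6, the assembly of mm10) in the direction of the gene, with capitals marking the core TEAD motif CATTCC or its reverse complement GGAATG. The windows are chr3:145649986-145650235 on the minus strand for Cyr61, chr19:36119845-36120094 on the minus strand for Ankrd1, chr9:102717554-102717803 on the plus strand for Amotl2 and chr14:54577662-54577911 on the minus strand for Ajuba.
Cyr61: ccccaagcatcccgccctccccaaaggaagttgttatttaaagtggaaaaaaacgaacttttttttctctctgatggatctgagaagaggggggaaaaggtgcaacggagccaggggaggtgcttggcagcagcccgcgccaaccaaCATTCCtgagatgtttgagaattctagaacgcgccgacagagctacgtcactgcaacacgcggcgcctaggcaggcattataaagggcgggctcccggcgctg
Ankrd1: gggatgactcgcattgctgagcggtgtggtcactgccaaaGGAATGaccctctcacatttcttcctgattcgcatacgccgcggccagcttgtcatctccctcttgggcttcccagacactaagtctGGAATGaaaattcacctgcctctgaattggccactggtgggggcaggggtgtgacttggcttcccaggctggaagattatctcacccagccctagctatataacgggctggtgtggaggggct
Amotl2: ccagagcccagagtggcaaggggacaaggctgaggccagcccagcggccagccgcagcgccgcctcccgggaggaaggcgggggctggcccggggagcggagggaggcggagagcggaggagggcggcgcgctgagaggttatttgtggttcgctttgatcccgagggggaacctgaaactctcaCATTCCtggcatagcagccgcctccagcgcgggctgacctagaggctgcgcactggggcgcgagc
Ajuba: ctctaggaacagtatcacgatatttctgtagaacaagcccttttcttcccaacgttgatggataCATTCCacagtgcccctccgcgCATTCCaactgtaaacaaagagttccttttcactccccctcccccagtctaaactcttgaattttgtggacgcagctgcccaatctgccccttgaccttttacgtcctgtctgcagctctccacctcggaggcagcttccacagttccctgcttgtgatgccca
The motif began 103 bases before the start in Cyr61, 210 and 123 bases before it in Ankrd1, 65 bases before it in Amotl2, and 186 and 164 bases before it in Ajuba. It was also present 141 bases before the start of Yap1 and 136 bases before the nearer start of Wwtr1. All 6 of the 10 genes with a RefSeq window therefore held it, where 14.7% of 32851 windows of 300 bases (250 before and 50 after the start) did. Cyr61, Ankrd1, Amotl2 and Ajuba are already described as TEAD-bound, so these shares are not a test of enrichment. The AP-1 motif TGANTCA, searched on both strands, was in 0 of these 6 and in 7.81% of all windows. A match is a description of the letters, not of a bound site, and the genes with it differed in direction, with Amotl2 higher and Cyr61 lower in HOMO by their means. Ctgf, Nov, Wisp1 and Wisp2 had no window in the table used here.

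Amotl2, which encodes an angiomotin-family scaffold that binds YAP at cell junctions and restrains it, is itself a YAP target and so part of a feedback loop. It lies on the plus strand at chr9:102716672-102733418. Its level was 425, 417, 456 and 619 CPM in WT1 to WT4, and 1162, 1186, 954 and 999.8 CPM in HOMO1 to HOMO4. Every HOMO library lay well above every WT library, in both near-identical HOMO pairs. The mean went from 479 ± 94.4 to 1075 ± 115 CPM (SD, n = 4 each). By edgeR the log2 fold change was 1.17 (SE 0.18, 95% interval 0.76 to 1.57, adjusted p = 0.00694), or 2.24-fold higher. It was called whichever library was left out (adjusted p at most 0.0305), and among 17 alternatives it was lost only with near-identical libraries summed (adjusted p = 0.303 by edgeR and 0.0504 by DESeq2), where the log2 fold change remained 1.12. The median gene of chromosome 9, which holds Amotl2 and Yap1, stood at 0.24 in WT3 and -0.19 in WT4 relative to the other WT libraries on the log2 scale.

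Ankrd1, an ankyrin repeat protein of the nucleus and of muscle sarcomeres that is induced by stretch, lies on the minus strand at chr19:36111961-36120099. Its values were 393, 358, 109 and 2005 CPM in WT1 to WT4 and 149, 162, 186 and 169 CPM in HOMO1 to HOMO4. WT3 was the lowest and WT4 the highest of all 8 libraries, so the narrow HOMO range fell inside the WT range. The means were 716 ± 868 and 167 ± 15.6 CPM (SD, n = 4 each), and the log2 fold change of -2.10 (SE 0.75, 95% interval -3.82 to -0.39) did not pass in edgeR (adjusted p = 0.0960). It rested on WT4: without that library the log2 fold change was -0.78, while without WT3 it was -2.47 and passed (adjusted p = 0.0287). DESeq2 also called it (adjusted p = 0.0140), as did limma-voom (adjusted p = 0.00172, log2 fold change -1.13). With near-identical libraries summed the adjusted p was 0.447 by edgeR and 0.191 by DESeq2. In WT4 the median gene of chromosome 19 stood at -0.22 relative to the other WT libraries on the log2 scale, and its part in the Ankrd1 value was not tested. The 8 heart and skeletal muscle markers summed to 4.22 to 21.6 CPM in WT, highest in WT4, and 6.44 to 15.6 CPM in HOMO, and 0 of the 3 tested were called.

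Ajuba encodes a LIM-domain scaffold of cell junctions that inhibits LATS kinases, and lies on the minus strand at chr14:54567472-54577558. Its level was 98.3, 86.0, 93.5 and 60.8 CPM in WT1 to WT4 and 122, 127, 99.2 and 93.1 CPM in HOMO1 to HOMO4. The ranges overlapped only through HOMO4. The means were 84.7 ± 16.7 and 110.3 ± 16.7 CPM (SD, n = 4 each) and the log2 fold change was 0.38 (SE 0.18, 95% interval -0.03 to 0.80, edgeR adjusted p = 0.185). WT4, the lowest library for Ajuba, was also the one in which the median gene of chromosome 14 stood at -0.23 relative to the other WT libraries on the log2 scale, and its part in the value was not tested.

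The 3 targets outside the CCN family thus had 1 DEG, upward, where 12.1% of all tested genes were DEGs, and values on both sides of 0. Set against each other within a library, a comparison chosen after the values were seen, Amotl2 stood at 0.158, 0.160, 0.249 and 0.0582 times the Ctgf level in WT1 to WT4 and at 2.05, 1.93, 0.526 and 0.647 times in HOMO1 to HOMO4, both per kb of exon. The ranges of this ratio did not overlap, which already follows from the separate CPM ranges of Amotl2 and Ctgf given above. The ratio does not depend on the scaling between libraries. The ratio of Amotl2 to Ankrd1 per kb ran from 0.142 to 1.91 in WT and from 2.35 to 3.58 in HOMO.

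Neither coactivator gene was called in edgeR. Yap1, on the minus strand at chr9:7931999-8004596, stood at 215, 208, 236 and 243 CPM in WT1 to WT4 and at 201, 208, 201 and 196 CPM in HOMO1 to HOMO4. The highest HOMO value and the lowest WT value round to the same number, so the absence of overlap is by a very small margin. The means were 226 ± 16.7 and 202 ± 4.76 CPM (SD, n = 4 each) and the log2 fold change was -0.16 (SE 0.11, 95% interval -0.41 to 0.09, edgeR adjusted p = 0.344). Wwtr1, on the minus strand at chr3:57455649-57575910, stood at 99.9, 106, 153 and 197 CPM in WT1 to WT4 and at 168, 169, 152 and 149 CPM in HOMO1 to HOMO4. Its WT libraries enclosed all HOMO libraries. The means were 139 ± 45.5 and 159 ± 10.6 CPM (SD, n = 4 each), with a log2 fold change of 0.20 (SE 0.22, 95% interval -0.30 to 0.70, edgeR adjusted p = 0.572). In limma-voom with sample quality weights its log2 fold change was 0.55 (adjusted p = 0.00134), just under the fold change threshold, and in edgeR it was 0.42 without WT4 and 0.07 without WT1. Wwtr1 lies on chromosome 3, where WT3 was shifted as given for Cyr61. With the 8 libraries taken as separate samples, the edgeR intervals of both genes leave out a change as large as that of Amotl2 in either direction. Intervals with near-identical libraries summed are not given here and may be wider.

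The DNA-binding partners and cofactors of YAP and TAZ held 1 DEG among the 6 genes tested of 8, against 12.1% of all tested genes. The median log2 fold change of the 6 was 0.07. The DEG was Vgll4, which competes with YAP for TEAD factors. Its CPM was 40.9, 39.6, 41.7 and 46.8 in WT1 to WT4 and 126, 120.5, 82.4 and 81.8 in HOMO1 to HOMO4, with all HOMO libraries higher. By edgeR it rose by 1.28 on the log2 scale (SE 0.18, adjusted p = 0.00521). The other 5 genes tested, Tead1, Tead2, Tead3, Tead4 and Vgll3, had adjusted p from 0.288 to 0.625. Vgll1 and Vgll2 were too low for the test: Vgll1 was at 0 in every library, and Vgll2 held 0 to 7 counts, with an exact permutation p of 0.257.

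Among 23 genes of the Hippo kinase cascade and its upstream regulators, 1 was a DEG, and the median log2 fold change was -0.21. Fat4, a giant cadherin that acts as a cell surface regulator of the pathway, stood at 61.9, 54.8, 63.8 and 77.2 CPM in WT1 to WT4 and at 29.3, 25.9, 29.96 and 33.7 CPM in HOMO1 to HOMO4. All HOMO libraries were lower, and by edgeR it fell by 1.12 on the log2 scale (SE 0.15, adjusted p = 0.00436). The 22 others, including the kinase genes Stk3, Stk4, Lats1 and Lats2, had adjusted p from 0.0689 to 0.871, and 6 of the 23 had unadjusted p under 0.05, where 12.1% of all tested genes were DEGs and 32.3% had such a p.

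Of 18 other genes of a conserved YAP and TAZ target signature, among them Lats2 and Ptpn14 of the Hippo list, 1 was upregulated and 2 were downregulated, against 12.1% of all tested genes called, with a median log2 fold change of -0.15. Nt5e, which encodes the ecto-enzyme CD73 that makes adenosine, stood at 21.6, 22.5, 19.9 and 58.2 CPM in WT1 to WT4 and at 175, 171, 226 and 208 CPM in HOMO1 to HOMO4. It was higher in all HOMO libraries, with an edgeR log2 fold change of 2.67 (SE 0.37, adjusted p = 0.00487). Tgfb2, a ligand of the TGF-beta receptors, stood at 55.8, 60.8, 80.2 and 73.5 CPM in WT1 to WT4 and at 31.9, 28.7, 27.98 and 30.8 CPM in HOMO1 to HOMO4. It was lower in all HOMO libraries, with an edgeR log2 fold change of -1.18 (SE 0.15, adjusted p = 0.00358). Crim1, a transmembrane protein that binds growth factors of the BMP family, stood at 533, 539, 493 and 1007 CPM in WT1 to WT4 and at 340.0 to 370.1 CPM in HOMO. Its edgeR log2 fold change of -0.88 (SE 0.24, adjusted p = 0.0448) was near the threshold, and without WT4 it was -0.57. The call was lost in 11 of 17 alternatives, among them the removal of WT1 (adjusted p = 0.0540), WT2 (0.0604) and each HOMO library (0.101 to 0.131). With near-identical libraries summed its adjusted p was 0.397 by edgeR and 0.282 by DESeq2. With near-identical libraries summed, the edgeR adjusted p of Vgll4, Fat4, Nt5e and Tgfb2 was 0.235 to 0.252, in a fit that called 0 of all genes. DESeq2 on the same summed libraries called each of them, with adjusted p of 0.0188 (Vgll4), 0.0198 (Fat4), 0.00128 (Nt5e) and 0.00739 (Tgfb2).

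The 10 receptor genes through which CCN proteins act, integrin subunits, LRP receptors, Sdc4 and Notch1, held 0 DEGs in edgeR and 2 with unadjusted p under 0.05. Of all tested genes, 12.1% were DEGs and 32.3% had such a p. The median log2 fold change of the 10 receptor genes was -0.31. The smallest adjusted p belonged to the integrin subunit genes Itgb5 (log2 fold change -0.83, SE 0.24, adjusted p = 0.0533) and Itgb1 (-0.57, SE 0.19, adjusted p = 0.0778). Itgb5 was at 393 to 807 CPM in WT and 273 to 358 CPM in HOMO, and passed in DESeq2 (adjusted p = 0.0176), but not with near-identical libraries summed (adjusted p = 0.219).

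**Figure D4:**
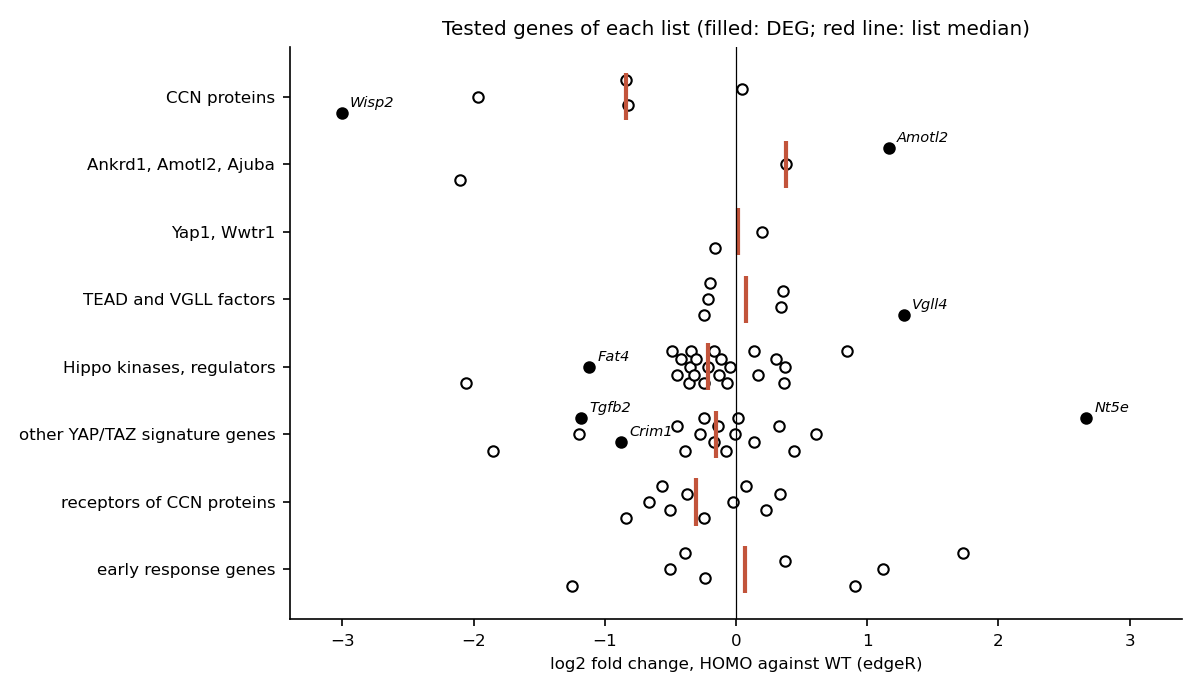
Fitted log2 fold change, HOMO relative to WT, of each tested gene in the member groups and in the 5 pathway lists from TEAD factors to early response genes, 1 row per list, with DEGs of the edgeR test filled and named and the list median as a red line. Each list holds 0 to 3 DEGs, with 3 of 18 in the YAP and TAZ signature and 0 of 10 among the CCN receptors. Of all tested genes 12.1% were DEGs. The DEGs shown lie on both sides of 0.

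Markers of other cell types were also read in these libraries. The 6 smooth muscle and pericyte markers summed to 774 to 2707 CPM in WT, to 199 and 206 CPM in HOMO1 and HOMO2, and to 1453 and 1428 CPM in HOMO3 and HOMO4. Most of this sum was Acta2, at 743 to 2418 CPM in WT and 190, 197, 1363 and 1337 CPM in HOMO1 to HOMO4. Ctgf, Cyr61, Wisp1 and Wisp2 were also lower in HOMO1 and HOMO2 than in HOMO3 and HOMO4. In WT the marker sum was highest in WT3, at 2707 CPM, and stood at 898 CPM in WT4. Ctgf, Cyr61, Wisp1 and Wisp2 were instead highest in WT4, and Ctgf and Wisp2 were lowest in WT3. Of the 6 markers, 1 was called, where 12.1% of all tested genes were. Unlike the sum, Des was lowest in WT1 and WT2. It stood at 0.844, 0.558, 28.2 and 5.15 CPM in WT1 to WT4 and at 4.10, 4.36, 12.7 and 12.7 CPM in HOMO1 to HOMO4. The 7 leukocyte and macrophage markers summed to 109.5, 140.0, 1857 and 1091 CPM in WT1 to WT4 and to 23.2 to 152 CPM in HOMO, with 0 of 5 tested called by edgeR. The 6 mesothelial markers summed to 52.8 to 235 CPM in WT and 106 to 152 CPM in HOMO, with 1 called. This sum joined unlike patterns. Wt1 was higher in every HOMO library, at 1.12 to 8.66 CPM in WT and 26.8 to 40.6 CPM in HOMO. Krt19 was at 35.4, 28.4, 3.27 and 0.581 CPM in WT1 to WT4 and at 1.24 to 2.67 CPM in HOMO. The part of these cell types in the member values was not tested.

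For each of the 10 genes, the genes with the most similar pattern were ranked by Pearson's r of log2 CPM over the 8 libraries among 11731 genes, as a description without a test, since with 8 libraries, 6 of them in near-identical pairs, high values arise for many genes. Among the genes closest to Wisp2 were Rassf3 and Lynx1 (r = 0.993 for both). Amotl2 was closest to Fam110c (r = 0.998), Ankmy2 (0.997) and Slc9a3r1 (0.997). Ctgf was closest to Prkab2 (r = 0.997), Aff3 and 2310043P16Rik (both 0.993), and Ankrd1 to Eya3 (0.988), Tpcn1 (0.985) and Lpgat1 (0.982). Cyr61 was closest to Nars (r = 0.996), Podnl1 (0.992) and Inhbb (0.989), Wisp1 to Nacad (0.994), Rasl12 and Chn1 (both 0.993), and Nov to Cntln (0.980), Zfp770 (0.975) and Gnptab (0.966). Ajuba was closest to Atg4d (r = 0.981), Polr1c and Rpl12 (both 0.980), Yap1 to 4833439L19Rik (0.989), Cdnf (0.986) and Plod3 (0.983), and Wwtr1 to Wnt9a (0.993), Tmem175 (0.991) and Scfd1 (0.990). The nearest gene to each of the 10 was never another of the 10.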

How the data were processed

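Total RNA of 8 pFB samples was extracted with TRIzol and poly-A mRNA was made into NEBNext Ultra libraries. The deposited values are gene counts, which the authors made by trimming with fastp, aligning to mm10 with STAR and counting with featureCounts. CASAVA and DESeq2 are also named in the submitters' processing notes. The strand setting of the counting is not given in the sources used here. Samples were grouped by the genotype in the labels. The table held 0 unused columns of per-sample values. Columns of the authors' own comparisons were not used.

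Genes passing filterByExpr were fitted with edgeR 4.0.16 (R 4.3.3; TMM, quasi-likelihood F test, Benjamini-Hochberg over all 14150 genes). DESeq2 1.42.0 and limma 3.58.1 (voom), other normalizations, no low-count filter, no fold change threshold, a replicate block, summed near-identical libraries and leaving out each library were alternatives. The fit was checked on simulated counts with 200 changed genes. CPM were counts over TMM-scaled totals, and gene positions and exon lengths came from GENCODE M21 (GRCm38). Intervals are at 95%.

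The genes named are the 10 genes, the DEGs of each pathway list (or the 2 smallest p where a list has none) and the 3 most correlated genes per member among those with a mean log2 CPM of at least 1. Some genes picked by this rule are not reported here. The 10 genes and the lists were chosen with earlier results of these data known. In all 4 same-numbered library pairs the deviations from the genotype means correlated at -0.12 to 0.01, so the numbers were not taken to pair WT with HOMO libraries.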

Additional observations from a re-analysis of the deposited data

Results flagged for a closer look

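Within each genotype, a library was singled out where its gap to the nearest of the other 3 made up most of the range (Dixon's test). Of 42 sets of 4 values tested over the 10 genes and the pathway genes picked by the naming rule, 2 met this limit. Both were values of WT4 and neither belonged to the 10 genes. For sets of 4 independent values chance gives about 1 in 20, or 2.1. These sets hold near-identical libraries (WT1 with WT2, HOMO1 with HOMO2, HOMO3 with HOMO4) and are not independent values. The count of 2 is therefore not read against 2.1, and whether it exceeds chance was not tested. Crim1 in WT4 was at 9.98 on the log2 CPM scale, where WT1 to WT3 stood at 8.94 to 9.08. Nt5e in WT4 was at 5.87 on that scale, where WT1 to WT3 stood at 4.32 to 4.50, and so lay nearer to the HOMO libraries than they did. The high Ctgf and Ankrd1 values of WT4 did not meet the limit on the log2 scale.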

How the results depend on the processing

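The 10 genes held 2 DEGs in edgeR, and 5 with DESeq2 (Ctgf, Wisp1, Wisp2, Ankrd1 and Amotl2), 4 with limma-voom (without Wisp1), 0 with near-identical libraries summed in edgeR (3 at an unadjusted p under 0.05) and 1, Wisp2, with them summed in DESeq2, an analysis added after seeing the data. Leaving out 1 library gave 1 to 4, with 1 (Amotl2) without HOMO1 or HOMO2 and 4 without WT3. Over all genes the 1716 DEGs became 2913 with DESeq2, 3573 with limma-voom, 0 (2057 at an unadjusted p under 0.05) with libraries summed, 735 with libraries summed in DESeq2 and 507 to 2192 when 1 library was left out. The replicate block gave 947 DEGs over all genes and 3 among the 10 (Wisp1 joined, adjusted p = 0.0324), but the numbers carried no sign of pairing, as 0 of 4 WT libraries correlated best with the HOMO library of their own number. The log2 fold change of Nov turned from 0.05 to -0.42 with limma-voom and to between -0.21 and -0.01 without WT3, WT4 or HOMO4, and ran from -0.21 to 0.33 over all single-library removals. The cause was not tested. Of 170 values for the 10 genes, 153 kept direction and side of the threshold, 5 lost the threshold, 8 gained it and 4 turned sign. Of 187 values for 11 pathway genes picked by the naming rule, 161 kept both, 20 lost the threshold, 6 gained it and 0 turned sign.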

Other observations

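Pmepa1, a membrane protein that dampens signalling by TGF-beta, the growth factor best known for inducing Ctgf, was read as part of a list of TGF-beta response genes. It stood at 175, 175, 390.4 and 282 CPM in WT1 to WT4 and at 62.0, 63.9, 112 and 109 CPM in HOMO1 to HOMO4, with all HOMO libraries lower. It fell by 1.56 on the log2 scale (SE 0.33, edgeR adjusted p = 0.0203). The edgeR adjusted p was 0.0721 without HOMO1, 0.0742 without HOMO2 and 0.296 with near-identical libraries summed. DESeq2 on the summed libraries called Pmepa1 (adjusted p = 0.0228). Of the 6 genes in the TGF-beta list, 2 were DEGs in edgeR, both downward. Of all tested genes, 12.1% were DEGs and 6.18% were downregulated ones. The median log2 fold change of the list was -1.03, with all 6 below 0. The other 4 had edgeR adjusted p from 0.202 to 0.928.

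The 8 early response genes, transcription factors and related genes that react within minutes to serum and stress, held 0 DEGs in edgeR and 4 with unadjusted p under 0.05. Of all tested genes, 12.1% were DEGs and 32.3% had such a p. The median log2 fold change of the 8 was 0.07. Atf3, a stress-induced factor, was at 4.56 to 11.5 CPM in WT and 2.24 to 4.21 CPM in HOMO (log2 fold change -1.25, SE 0.36, edgeR adjusted p = 0.0527, and 0.00839 by DESeq2, or 0.100 by DESeq2 with near-identical libraries summed). Junb, a subunit of AP-1, was at 93.3 to 154 CPM in WT, at 148 and 139.5 CPM in HOMO1 and HOMO2 and at 323 and 305 CPM in HOMO3 and HOMO4 (log2 fold change 0.90, SE 0.33, edgeR adjusted p = 0.101).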
